A study of Mus musculus with 8 samples.

Results

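The genes of platelet-derived growth factor (PDGF) and endothelin signalling were examined in the accessible chromatin of liver sinusoidal endothelial cells (LSECs): the ligands Pdgfa, Pdgfb, Pdgfc and Pdgfd, the receptors Pdgfra and Pdgfrb, the peptide hormone gene Edn1, its converting enzyme gene Ece1, and the endothelin receptors Ednra and Ednrb. Every row of the deposited peak table whose annotated gene was one of these 10 was taken, which gave 55 of 58522 peaks. The annotation names the gene with the nearest transcription start, which need not be the gene that a peak regulates. Of the 10 genes, 9 had at least 1 peak, and Ednra, the receptor through which endothelin-1 contracts smooth muscle and stellate cells, had none. Ece1 had 13 peaks, Ednrb had 12, Pdgfa and Edn1 had 7 each, Pdgfc had 5, Pdgfb had 4, Pdgfd and Pdgfra had 3 each, and Pdgfrb had 1.

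The study compared LSECs of control and MafLSEC-KO mice at 12 weeks of age by ATAC-seq, in which Tn5 transposase inserts sequencing adapters into open DNA. MafLSEC-KO mice (Clec4g-iCre tg/wt; Maf fl/fl) carried a recombinase transgene driven by Clec4g, a gene of LSECs, and floxed alleles of Maf, which encodes the transcription factor c-Maf. Controls were littermates with no Cre (Clec4g-iCre wt/wt) and with Maf fl/fl or fl/wt, so that floxed Maf was shared by all animals, and the study used both sexes without naming that of each library. Cells were obtained by magnetic selection for CD146, a surface protein of endothelium that is not restricted to sinusoids, and each group held 4 libraries. The labels speak of 3 mice, and the methods describe pooling of liver tissue before digestion, so libraries may share animals, and the spread on which each p rests is that between libraries, part of which may be technical. Library totals were 5367124 to 13364062 counts in controls and 6783573 to 11614365 in MafLSEC-KO, and the promoter peak of Maf held 314 to 1088 counts in control libraries and 98 to 131 in MafLSEC-KO libraries.

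PDGF ligands are secreted dimers that bind receptor tyrosine kinases on mesenchymal cells, and in the liver PDGF-B acting on PDGFR-beta is a classical mitogen and attractant of hepatic stellate cells. Endothelin-1 is made as a precursor, is cleaved to its active form by endothelin converting enzyme, and acts on G protein-coupled receptors. The endothelin A receptor on stellate cells and smooth muscle drives contraction, whereas the endothelin B receptor on endothelium clears the peptide and triggers release of nitric oxide. Endothelial cells are known as a source of the ligands Pdgfb and Edn1 and a site of the receptor Ednrb, whereas Pdgfra and Pdgfrb are genes of mesenchyme.

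The DNA of the peaks on which the results turn is shown here for the member peaks with the smallest p in each direction, with no more than 1 peak per gene and direction. The central 200 bases of each peak are printed on the plus strand of mm10, 5′ to 3′, as read from the GRCm38 RefSeq assembly, and capitals mark matches to 5 motifs searched on both strands. Those were a MARE with a single flank (GCTGANTCA, the element bound by MAF proteins), the AP-1 element (TGACTCA, which a MARE can contain), the site of GATA factors, spelled AGATAA, and those of ETS (ACNGGAAG) and KLF (CCACACCC).
Pdgfb upstream peak, higher in MafLSEC-KO, chr15:80024324-80024523: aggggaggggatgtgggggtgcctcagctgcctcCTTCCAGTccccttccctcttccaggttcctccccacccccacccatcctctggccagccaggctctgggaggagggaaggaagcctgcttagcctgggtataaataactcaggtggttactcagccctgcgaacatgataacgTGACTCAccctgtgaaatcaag
Ednrb intron peak, higher, chr14:103832756-103832955: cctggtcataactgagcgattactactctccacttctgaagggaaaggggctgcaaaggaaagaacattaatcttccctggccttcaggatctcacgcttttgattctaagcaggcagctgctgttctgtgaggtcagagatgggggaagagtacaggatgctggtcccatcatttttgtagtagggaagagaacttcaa
Edn1 upstream peak, higher, chr13:42245961-42246160: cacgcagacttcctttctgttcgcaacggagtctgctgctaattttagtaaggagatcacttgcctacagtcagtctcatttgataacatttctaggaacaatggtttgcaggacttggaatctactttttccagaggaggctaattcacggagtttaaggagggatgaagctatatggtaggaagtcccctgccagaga
Ece1 first-intron peak, higher, chr4:137865021-137865220: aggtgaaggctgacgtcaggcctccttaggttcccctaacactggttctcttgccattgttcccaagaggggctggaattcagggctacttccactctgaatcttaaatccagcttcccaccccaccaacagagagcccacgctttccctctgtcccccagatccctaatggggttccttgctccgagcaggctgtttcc
Ednrb upstream peak, lower, chr14:103904354-103904553: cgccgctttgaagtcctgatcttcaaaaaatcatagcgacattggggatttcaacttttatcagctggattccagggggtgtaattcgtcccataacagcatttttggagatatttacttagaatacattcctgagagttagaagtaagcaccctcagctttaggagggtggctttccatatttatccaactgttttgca
Pdgfra start peak, lower, chr5:75156466-75156665: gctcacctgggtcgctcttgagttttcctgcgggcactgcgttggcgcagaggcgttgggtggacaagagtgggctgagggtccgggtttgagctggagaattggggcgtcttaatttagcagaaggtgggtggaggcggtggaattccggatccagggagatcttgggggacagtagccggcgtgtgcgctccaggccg
The promoter of Edn1, from 250 bases before to 50 after its start, lies inside another gained peak, chr13:42301226-42301525, plus strand, RefSeq: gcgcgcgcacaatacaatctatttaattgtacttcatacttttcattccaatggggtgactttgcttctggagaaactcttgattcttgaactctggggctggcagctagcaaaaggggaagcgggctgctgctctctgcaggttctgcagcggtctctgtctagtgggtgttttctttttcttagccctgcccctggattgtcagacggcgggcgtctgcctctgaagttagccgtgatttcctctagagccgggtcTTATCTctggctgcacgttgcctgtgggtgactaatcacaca

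In these windows the Pdgfb peak held an ETS match at position 35, on the minus strand as CTTCCAGT, and an AP-1 match at position 179, counted from the first base printed, and the other 5 peak windows held no match to the 5 motifs. The Edn1 promoter held a GATA match at position 259, on the minus strand as TTATCT. Over the central 200 bases of all 55 member peaks, a MARE with a single flank was found in 2, AP-1 in 6, GATA in 2, ETS in 4 and KLF in 0. The shares over all 58522 listed peaks were 1.52% for the MARE, 6.14% for AP-1, 11.4% for GATA, 8.70% for ETS and 1.85% for KLF. Both MARE-bearing peaks, at Pdgfa 20324 bases upstream and at Ece1 24233 bases upstream, were among the peaks that did not pass the test of accessibility. Among 32851 promoters of the same 300 bases, GATA was found in 11.2%. A match describes the letters in a window and not a bound site.

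The question was whether accessibility at these genes differed between MafLSEC-KO and control LSECs. Of the 55 peaks, 12 were higher in MafLSEC-KO, 2 were lower and 41 did not pass the threshold (adjusted p under 0.05, edgeR quasi-likelihood test). The 12 gained peaks belonged to Pdgfb (3), Edn1 (4), Ednrb (4) and Ece1 (1), and the 2 lost peaks to Pdgfra and Ednrb. Of all 58268 peaks tested, 8.97% were higher and 6.45% lower, against 21.8% and 3.64% of the member peaks. Every MafLSEC-KO library lay above every control library at 14 member peaks and below every control library at 3, against 11.2% and 8.28% of all tested peaks. The median log2 fold change was 0.16 over the member peaks and -0.00 over all tested peaks. The number of gained member peaks fell to 7 on leaving out control replicate 2 and to 7 on leaving out MafLSEC-KO replicate 4. The share of all peaks called higher was 5.73% and 7.24% in these fits, also below the 8.97% of the main fit. The number of lost peaks fell to 1 on leaving out control replicate 3 or 4, and on leaving out MafLSEC-KO replicate 1, 2 or 3. In those fits 4.26% to 8.09% of all peaks were lower. Of the 14 called peaks, 7 passed in all 15 alternatives, namely 2 upstream of Pdgfb, 1 upstream of Edn1 and 4 of Ednrb.

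**Figure D1:**
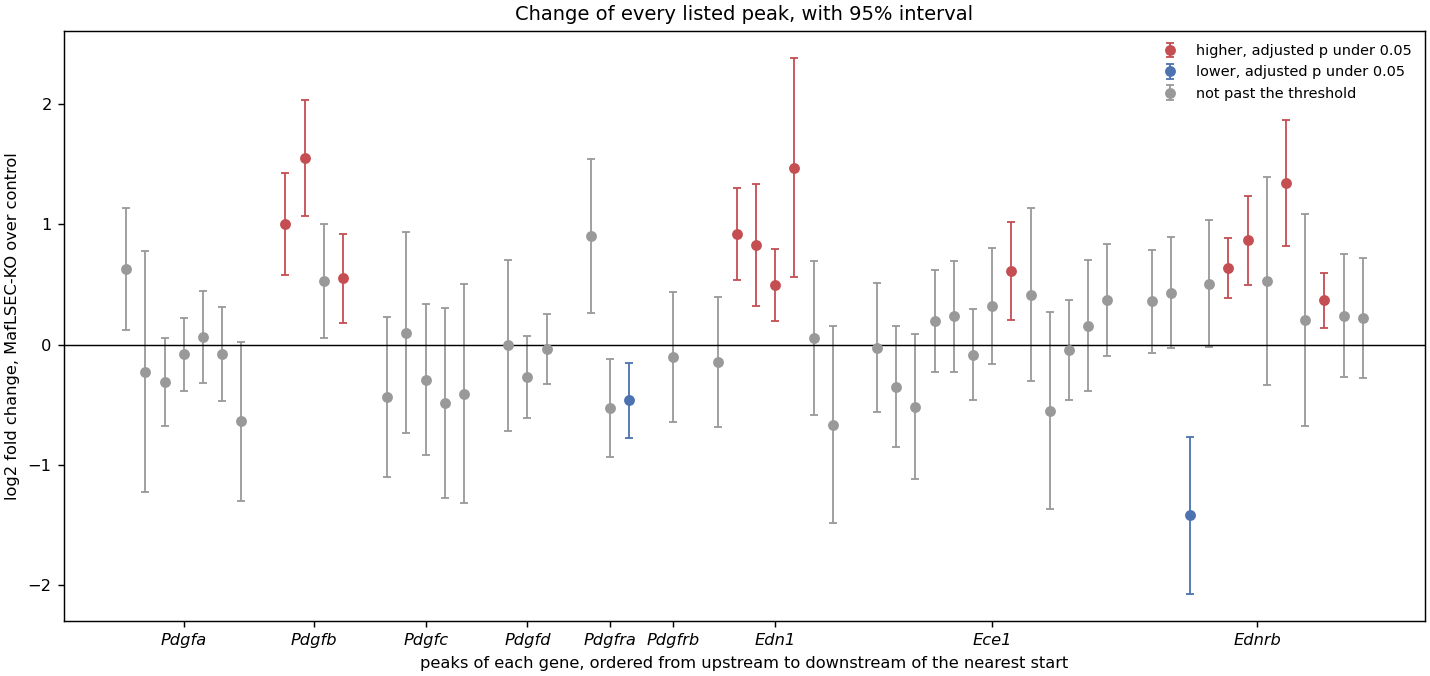
Log2 fold change of MafLSEC-KO over control (vertical axis) with its 95% interval for each of the 55 peaks, grouped by gene and ordered within a gene from upstream to downstream. Red peaks were higher and blue peaks lower at an adjusted p under 0.05, and the red peaks stand at Pdgfb, Edn1, Ednrb and, with 1 peak, Ece1.

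Counts summed over all peaks of a gene count each gene once. The sums of Pdgfb, Edn1 and Ednrb were higher in MafLSEC-KO, no member sum was lower, and 6 did not pass. Of 17745 genes tested, 5.65% had a higher and 4.05% a lower sum. Values are given as CPM, the count of a peak divided by the TMM-scaled total of its library on the usual CPM scale, and a sum is set by the number and width of the peaks that were listed.

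**Figure D2:**
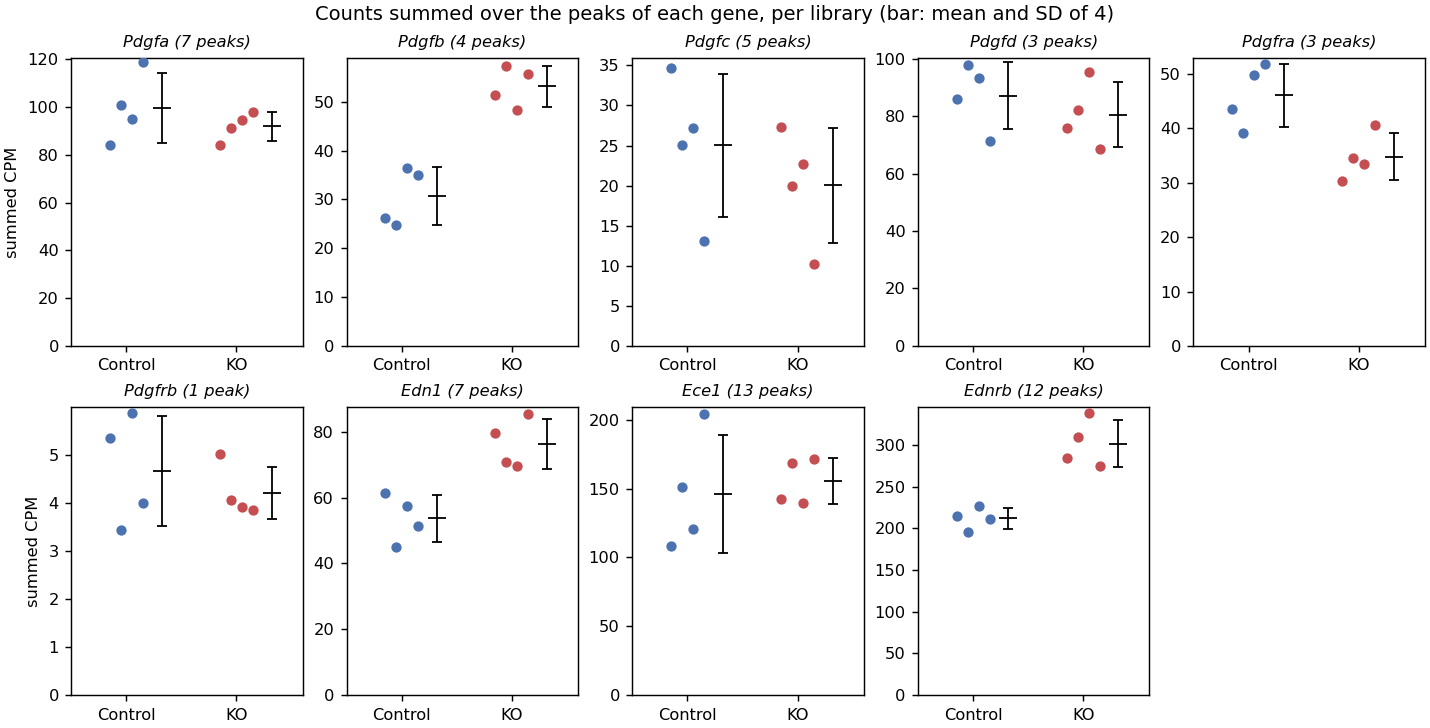
CPM summed over the listed peaks of each gene (vertical axis, from 0) in the 4 control (blue) and 4 MafLSEC-KO (red) libraries, with the mean and SD beside the points. The groups are apart at Pdgfb, Edn1 and Ednrb and overlap at the other 6 genes.

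Among the PDGF ligands, Pdgfb (chr15:79995874-80014977, minus strand) was the one with a higher sum. Its sum over 4 peaks was 26.2, 24.8, 36.5 and 34.96 CPM in control replicates 1 to 4 and 51.3, 57.3, 48.2 and 55.7 CPM in MafLSEC-KO replicates 1 to 4. All MafLSEC-KO libraries lay above all controls, and the means were 30.6 ± 5.95 and 53.1 ± 4.14 CPM (SD, n = 4 each). The log2 fold change was 0.79 (SE 0.138, 95% interval 0.50 to 1.09, edgeR adjusted p = 0.00271). The call held in all 16 alternatives in which this sum was computed, with log2 fold changes of 0.70 to 0.88.

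The gain at Pdgfb was largest at a pair of neighbouring intergenic peaks, 781 bases apart, upstream of the gene. The peak centred 9446 bases upstream, at chr15:80024118-80024729, had 3.63, 2.49, 4.37 and 3.16 CPM in the control libraries and 10.6, 10.97, 9.40 and 8.53 CPM in the MafLSEC-KO libraries. The lowest MafLSEC-KO library was well above the highest control, and the fitted difference between the groups was 2.93-fold (log2 1.55, SE 0.230, edgeR adjusted p = 0.000127). This was the smallest adjusted p of any member peak, and the window printed first above comes from it. The peak centred 10886 bases upstream, at chr15:80025510-80026217, had 4.90, 7.71, 9.96 and 9.41 CPM in control libraries and 13.6, 17.5, 16.9 and 16.7 CPM in MafLSEC-KO (log2 1.003, SE 0.203, adjusted p = 0.00201). In GENCODE, on the GRCm38 assembly, all 4 Pdgfb peaks overlap Gm41361, a gene annotated as antisense, and their nearest protein-coding start is that of Pdgfb.

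The remaining Pdgfb peaks lay at the gene itself. The peak in intron 1, centred 2648 bases downstream of the start at chr15:80011593-80013065, rose from 10.4 ± 2.12 to 15.2 ± 0.805 CPM (log2 0.55, SE 0.177, adjusted p = 0.0404). Its call was lost on leaving out control replicate 1 (adjusted p = 0.0966) or 2 (0.152), on leaving out MafLSEC-KO replicate 1 (0.108), 2 (0.0905), 3 (0.0692) or 4 (0.0985), and with RLE size factors (0.0508). The peak over the 5′ UTR and start had 8.45 ± 2.14 CPM in control libraries and 12.3 ± 3.26 CPM in MafLSEC-KO with overlapping groups, and did not pass (log2 0.53, SE 0.229, adjusted p = 0.132), although it passed with the replicate number as a block (adjusted p = 0.0293) and on leaving out control replicate 4 (0.0267).

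The other PDGF ligands did not pass at any peak. Pdgfa, whose product binds PDGFR-alpha, had a sum of 84.0 to 119 CPM in control libraries and 84.0 to 97.8 CPM in MafLSEC-KO (log2 -0.12, 95% interval -0.36 to 0.12, edgeR adjusted p = 0.568). Its promoter peak, at chr5:138994575-138996292, had 19.1 ± 4.92 and 18.2 ± 3.02 CPM in control libraries and MafLSEC-KO, and covered 4 annotated starts of the gene. The 7 Pdgfa peaks ranged from -0.64 to 0.63 on the log2 scale, and 4 of them were nearer to the start of Prkar1b in the GENCODE annotation. The strongest of the 7, the MARE-bearing peak 20324 bases upstream, is among these 4. It alone held 40.0 ± 3.23% of the Pdgfa counts in controls and 40.7 ± 3.67% in MafLSEC-KO. The sum thus rests in large part on peaks nearer to another gene. At 1 of these 4, in an intron of Prkar1b 65656 bases from the Pdgfa start, the log2 fold change was 0.63 (adjusted p = 0.0916), and it passed with the replicate block (0.0353), with library depth as a covariate (0.0488) and on leaving out control replicate 1 (0.0495). Another of these 4, over the 3′ UTR of Prkar1b 23008 bases from the Pdgfa start, did not pass (log2 -0.31, adjusted p = 0.263) but passed as lower with depth as a covariate (log2 -0.42, adjusted p = 0.0339) and with both shallow controls, replicates 1 and 3, left out (log2 -0.56, 0.0212).

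Pdgfc and Pdgfd encode ligands that need proteolytic release of their growth factor domain. The sum of Pdgfc over 5 peaks was 34.7, 25.1, 27.2 and 13.1 CPM in control libraries and 27.3, 19.97, 22.7 and 10.2 CPM in MafLSEC-KO (log2 -0.31, 95% interval -0.95 to 0.33, adjusted p = 0.590). The lowest value of each group came from its deepest library. Its strongest peak, in intron 1 at chr3:81051497-81052016, had 8.58 ± 3.24 and 6.92 ± 2.52 CPM (log2 -0.29, adjusted p = 0.570). Pdgfd had 71.3 to 98.0 CPM in control libraries and 68.6 to 95.4 CPM in MafLSEC-KO (log2 -0.11, 95% interval -0.38 to 0.16, adjusted p = 0.657). Most of it came from the peak over exon 1 at chr9:6168069-6169750, with 63.1 ± 10.8 CPM in control libraries and 61.3 ± 9.74 CPM in MafLSEC-KO (log2 -0.04, 95% interval -0.33 to 0.26).

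At the PDGF receptors, accessibility was lower at a peak over 2 of the annotated starts of Pdgfra and did not pass at Pdgfrb. This Pdgfra peak, annotated as a CpG island, lay at chr5:75155821-75157309. It did not cover the most upstream GENCODE start of the gene, at 75152292, which was 4273 bases from the centre of the peak. The peak had 28.2, 28.2, 34.6 and 38.3 CPM in control libraries and 21.4, 23.0, 21.7 and 27.6 CPM in MafLSEC-KO. The groups did not overlap, and the peak fell by 0.47 on the log2 scale (SE 0.147, edgeR adjusted p = 0.0375). The call was lost on leaving out control replicate 3 (adjusted p = 0.0668) or 4 (0.0789) and on leaving out MafLSEC-KO replicate 1 (0.0998), 2 (0.104) or 3 (0.110). Fewer cells with an open site and a less open site in each cell cannot be told apart in these libraries.

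The sum of Pdgfra over 3 peaks was 43.5, 39.2, 49.8 and 51.8 CPM in control libraries and 30.4, 34.6, 33.5 and 40.7 CPM in MafLSEC-KO. A single MafLSEC-KO library reached into the control range, and the sum did not pass (log2 -0.40, SE 0.128, edgeR adjusted p = 0.0659). It passed with DESeq2 (adjusted p = 0.0325), with library depth as a covariate (0.00435), with the replicate block (0.00404) and on leaving out MafLSEC-KO replicate 4 (0.0437). The upstream peaks of Pdgfra lay in the non-coding gene Gm19583 and went in opposite directions without passing. The peak 9033 bases upstream had 10.97 ± 1.05 CPM in control libraries and 7.51 ± 1.38 CPM in MafLSEC-KO, with all MafLSEC-KO libraries below all controls (log2 -0.53, adjusted p = 0.0757). The peak 14307 bases upstream had 2.31 ± 0.730 CPM in control libraries and 4.17 ± 0.554 CPM in MafLSEC-KO, with all MafLSEC-KO libraries above all controls (log2 0.90, adjusted p = 0.0527). With the replicate block both passed, at an adjusted p of 0.0382 and 0.0232. The farther one also passed on leaving out control replicate 3 (adjusted p = 0.0239), with both shallow controls left out (0.0149), with cyclic loess (0.0472) and, as did the nearer one, with depth as a covariate (0.0179 and 0.0372).

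Pdgfrb, the receptor gene of pericytes and stellate cells, had a single peak of 206 bases in intron 9 at chr18:61068405-61068611. It held 5.27, 3.48, 5.76 and 3.92 CPM in control libraries and 5.02, 4.15, 3.97 and 3.84 CPM in MafLSEC-KO, from 28 to 52 reads per library. The groups overlapped (log2 -0.10, 95% interval -0.65 to 0.44, adjusted p = 0.841), and no listed peak covered its start.

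Markers of mesenchyme were examined beside the receptor genes. Of 14 markers of stellate cells and other mesenchyme, 9 had a tested sum, and 1 of these, the collagen gene Col1a2, was lower and 8 did not pass, while Lrat, Rgs5, Ngfr, Colec11 and Hand2 had no tested peak. The markers did not move together. Tcf21 had every MafLSEC-KO library above every control without passing (log2 0.54, edgeR adjusted p = 0.0699). Lhx2 also had a positive estimate (log2 0.20), and the other tested markers had negative ones. The summed level of the list was 108 to 144 CPM in control libraries and 109 to 117 CPM in MafLSEC-KO. The part of such cells in the Pdgfra values was not tested. Of 9 markers of liver sinusoidal endothelium, 4 were lower (Stab2, Lyve1, Fcgr2b and Dnase1l3) and 0 higher, with sums of 1160 to 1854 CPM in control libraries and 995 to 1209 CPM in MafLSEC-KO, and none of 7 general endothelial markers passed. The macrophage list (6 of 9 tested) and the hepatocyte list (4 of 8 tested, without Alb) had 0 calls, with sums of 109 to 130 and 112 to 129 CPM in control libraries and 99.7 to 112 and 115 to 131 CPM in MafLSEC-KO. Over all tested genes, 5.65% of sums were higher and 4.05% lower. In lists this short, 0 or 1 call is near that background and does not measure the share of such cells.

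At Edn1 (chr13:42301476-42307990, plus strand), accessibility was higher at the gene and at distal peaks on its upstream side. The sum over 7 peaks was 61.3, 44.9, 57.3 and 51.3 CPM in control libraries and 79.6, 70.7, 69.7 and 85.5 CPM in MafLSEC-KO. The groups did not overlap, with means of 53.7 ± 7.15 and 76.3 ± 7.52 CPM (SD, n = 4 each; log2 0.51, SE 0.117, 95% interval 0.26 to 0.77, edgeR adjusted p = 0.0135). On leaving out control replicate 2, the lowest control, the adjusted p was 0.0601 (log2 0.43), and the sum passed in the other 15 alternatives.

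The clearest gain was intergenic. The peak centred 55416 bases upstream of Edn1, at chr13:42245729-42246391, had 11.3, 8.58, 14.1 and 15.6 CPM in control libraries and 24.6, 23.3, 20.5 and 26.1 CPM in MafLSEC-KO (log2 0.92, SE 0.182, edgeR adjusted p = 0.00170). A neighbouring peak 729 bases farther upstream had 5.59 ± 1.27 and 5.03 ± 1.43 CPM (log2 -0.15, adjusted p = 0.760). The peak centred 42861 bases upstream, at chr13:42258435-42258796, rose from 3.94 ± 0.755 to 6.91 ± 1.05 CPM (log2 0.83, SE 0.243, adjusted p = 0.0248). Its call was lost on leaving out control replicate 2 (adjusted p = 0.0629) or 4 (0.0676) and on leaving out MafLSEC-KO replicate 1 (0.0860), 2 (0.0551) or 3 (0.0665). No gene of the GENCODE annotation overlapped these peaks, and Edn1 had the nearest protein-coding start.

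The peak over the start of Edn1, at chr13:42300703-42302800, covered the promoter printed above, the 5′ UTR and the first coding bases. It had 26.0, 21.4, 26.0 and 20.1 CPM in control libraries and 32.8, 30.9, 29.8 and 37.6 CPM in MafLSEC-KO, without overlap (log2 0.50, SE 0.143, edgeR adjusted p = 0.0218). The narrow peak in intron 2, at chr13:42303793-42303990, rested on 3 to 12 reads in the control libraries and 14 to 55 in the MafLSEC-KO libraries (log2 1.47, SE 0.436, adjusted p = 0.0267). The call at the start was lost on leaving out control replicate 2 (adjusted p = 0.0911), and on leaving out MafLSEC-KO replicate 1 (0.0600) or 4 (0.0940), and that in the intron on leaving out control replicate 3 (0.0567), and on leaving out MafLSEC-KO replicate 3 (0.0681) or 4 (0.124). The intronic counts show a higher level in every MafLSEC-KO library, at a depth that leaves the size of the difference between 0.56 and 2.39 on the log2 scale. An antisense gene, Gm47118, overlaps the peaks at the gene, and open DNA carries no strand that could tell them apart.

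Ece1, which encodes the enzyme that makes active endothelin-1, had the most peaks of the 9 genes. Of its 13 peaks 1 passed, as higher, which was near the 8.97% of all tested peaks that were higher. That peak, in intron 1 at chr4:137864764-137865476, had 6.90, 9.83, 9.78 and 10.4 CPM in control libraries and 14.8, 17.6, 10.9 and 13.7 CPM in MafLSEC-KO (log2 0.61, SE 0.195, edgeR adjusted p = 0.0395). The call was lost on leaving out control replicate 1 (adjusted p = 0.109), 2 (0.0912) or 3 (0.0566), on leaving out MafLSEC-KO replicate 1 (0.0982), 2 (0.170) or 4 (0.0743), and with both shallow controls left out (0.120).

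The 3 promoter peaks of Ece1, annotated to different transcripts, did not pass. In GENCODE the most upstream and the middle one covered 2 starts of the gene each. The most downstream one covered 0 and lay 6040 bases from the nearest. The most upstream one, at chr4:137861919-137862561, had 16.8 ± 5.67 CPM in control libraries and 20.01 ± 4.63 CPM in MafLSEC-KO (log2 0.23, 95% interval -0.23 to 0.70). The middle one, at chr4:137913038-137914192, had 18.5 ± 4.98 and 17.7 ± 1.38 CPM (log2 -0.09, 95% interval -0.46 to 0.29), and the most downstream one, at chr4:137919722-137921017, had 22.3 ± 8.65 and 26.1 ± 2.05 CPM (log2 0.20, 95% interval -0.23 to 0.62). On leaving out control replicate 4 the last of these had an adjusted p of 0.0440, and the peak 34490 bases downstream of that start, in intron 14, an adjusted p of 0.0246. With depth as a covariate the peak 24233 bases upstream, which holds a MARE match, passed as lower (log2 -0.54, adjusted p = 0.0443). The sum over 13 peaks was 109, 151, 120 and 204 CPM in control libraries and 142, 168, 139 and 172 CPM in MafLSEC-KO (log2 0.08, SE 0.164, adjusted p = 0.813). In the controls these values stood in the order of the library totals, from 5367124 counts in replicate 1 to 13364062 in replicate 4.

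Of the endothelin receptor genes, Ednrb (chr14:103814625-103844402, minus strand) carried the most counts of any member and was higher, while Ednra had no listed peak. The sum of Ednrb over 12 peaks was 215, 196, 226 and 211 CPM in control libraries and 284, 310, 338 and 275 CPM in MafLSEC-KO. The groups were far apart relative to their spread, with means of 212 ± 12.7 and 302 ± 28.4 CPM (SD, n = 4 each; log2 0.51, SE 0.0861, 95% interval 0.33 to 0.70, edgeR adjusted p = 0.00228). The call held in all 17 alternatives, also where only the promoter peak entered. Ednrb made up 30.1 ± 2.28% of all member counts in controls and 36.8 ± 2.46% in MafLSEC-KO.

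For Ednra, at chr8:77663031-77724464 on the minus strand, 0 listed peaks fell in the gene body and the nearest listed peak to its start was 94243 bases away. A gene with no listed peak can still hold open sites below the level at which peaks were called or listed.

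The promoter peak of Ednrb, at chr14:103843168-103844950, covered 3 annotated starts, 5′ UTR and coding bases. It had 28.7, 14.2, 21.0 and 18.7 CPM in control libraries and 32.2, 37.0, 43.1 and 36.3 CPM in MafLSEC-KO, a 1.82-fold difference (log2 0.87, SE 0.176, edgeR adjusted p = 0.00213). The peak in intron 2, centred 10846 bases downstream at chr14:103832584-103833127, had 7.63, 3.73, 5.76 and 3.31 CPM in control libraries and 14.2, 14.1, 11.7 and 10.2 CPM in MafLSEC-KO, a 2.54-fold difference (log2 1.35, SE 0.249, adjusted p = 0.000961). At both peaks the lowest MafLSEC-KO library exceeded the highest control, control replicate 1. The peak over the last exon and 3′ UTR, at chr14:103815409-103817311, rose from 50.5 ± 2.78 to 65.0 ± 5.50 CPM (log2 0.37, SE 0.111, adjusted p = 0.0301). That call was lost on leaving out control replicate 1 (adjusted p = 0.0732) or 2 (0.0958) and on leaving out MafLSEC-KO replicate 2 (0.114), 3 (0.0859) or 4 (0.0582).

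The strongest Ednrb peak was intergenic. Centred 40816 bases upstream, at chr14:103884838-103885747, it had 69.4, 84.3, 85.8 and 93.3 CPM in control libraries and 116, 139, 150 and 114 CPM in MafLSEC-KO (log2 0.64, SE 0.120, edgeR adjusted p = 0.00109). It held 39.8 ± 5.35% of the counts of the gene in controls and 42.5 ± 1.53% in MafLSEC-KO. The intergenic peak 59977 bases upstream, at chr14:103904284-103904623, went the other way. It had 4.54, 3.48, 4.19 and 5.12 CPM in control libraries and 2.07, 1.75, 1.46 and 1.28 CPM in MafLSEC-KO, without overlap, and fell by 1.422 on the log2 scale (SE 0.313, adjusted p = 0.00384). A gap of 18.5 kb separates these 2 intergenic peaks, and no annotated gene lies over either of them. The 7 Ednrb peaks that did not pass had log2 fold changes of 0.21 to 0.53. Of these, the peaks 54746 and 75495 bases upstream passed as higher with depth as a covariate (adjusted p = 0.0184 and 0.0157), and the farther one also with both shallow controls left out (0.0179).

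**Figure D3:**
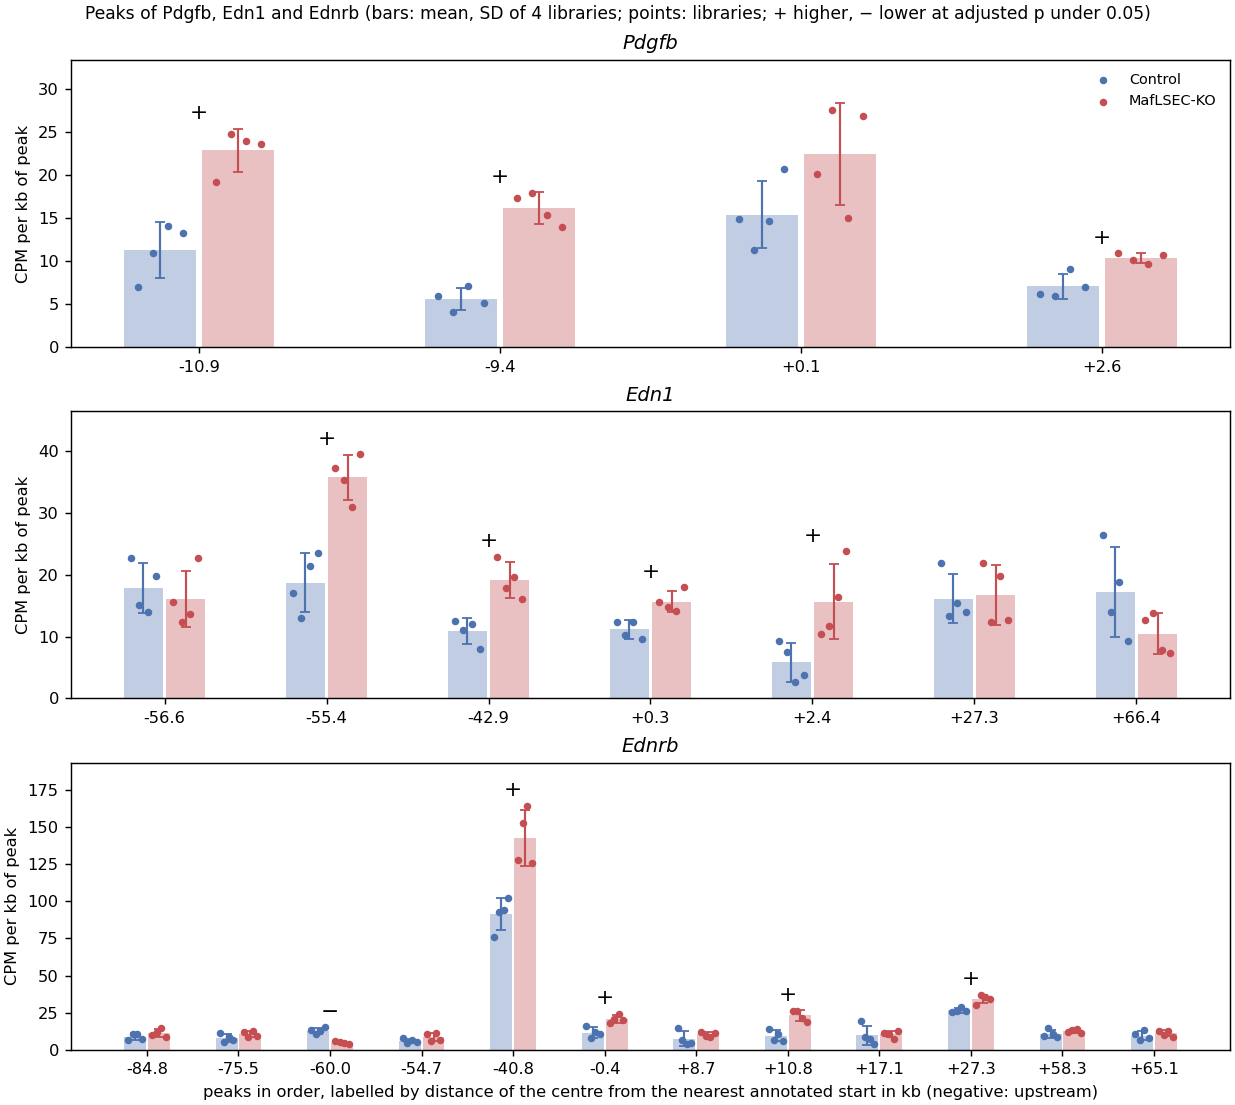
CPM per kb of peak (vertical axis, from 0) at every peak of Pdgfb, Edn1 and Ednrb, in order along each gene and labelled by distance from the nearest start in kb. Bars give the mean and SD of 4 libraries, points the libraries, and signs mark the peaks past the threshold. At Ednrb the peak 60.0 kb upstream is the one marked as lower, among 4 marked as higher.

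Whether the peaks of a gene changed to different extents was tested as the log2 fold change of a peak minus that of its gene, over all 51839 peaks of genes with more than 1 peak (edgeR diffSpliceDGE). Of 54 member peaks in this test, 4 passed (7.41%), against 8.65% of all peaks, so that the share was near the background. At Ednrb the peak 59977 bases upstream lay 1.96 below its gene on the log2 scale (adjusted p = 9.41e-05), in 14 to 19 reads per MafLSEC-KO library against 24 to 68 in controls, and passed in all alternatives run for this test. The Ednrb peak in intron 2 lay 0.81 above its gene (adjusted p = 0.0311), and lost the call on leaving out control replicate 2 (0.119) or 4 (0.131), and on leaving out MafLSEC-KO replicate 1 (0.132) or 2 (0.132). At Pdgfra the peak 14307 bases upstream lay 1.28 above its gene (adjusted p = 0.00524), and passed in all alternatives. It rested on 13 to 24 reads per control library and 23 to 50 per MafLSEC-KO library. Its own change did not pass (edgeR quasi-likelihood adjusted p = 0.0527). At Edn1 the peak 66441 bases downstream lay 1.21 below its gene (adjusted p = 0.0249), and lost the call on leaving out control replicate 1 (0.119) or 2 (0.0598), on leaving out MafLSEC-KO replicate 3 (0.0894) or 4 (0.132), with both shallow controls left out (0.242) and with depth as a covariate (0.0719). With the replicate block, 5 member peaks lay above and 3 below their gene. The share of all peaks in this test was not computed for that fit, so these counts have no background. In the test of accessibility the same fit called more peaks throughout (14.2% higher and 10.7% lower). No Pdgfb peak passed this test against the rest of its gene, with a smallest adjusted p of 0.0708.

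**Figure D4:**
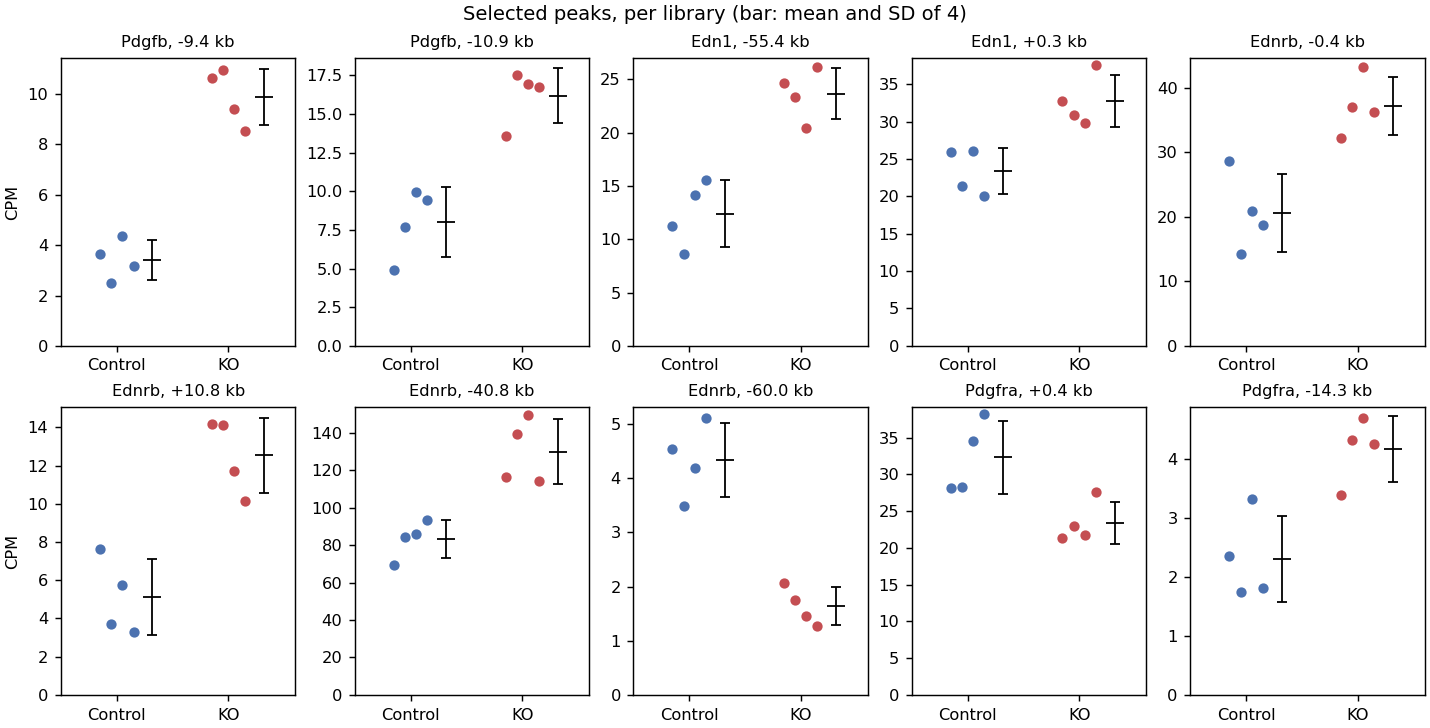
CPM (vertical axis, from 0) in each control (blue) and MafLSEC-KO (red) library at the 7 peaks that passed in all alternatives, the start of Edn1 and 2 peaks of Pdgfra, each named by gene and distance from the nearest start. Black bars give the mean and SD of 4 libraries, and the groups do not overlap in any panel.

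Between genes, levels can be compared per length, as summed CPM per kb of listed peak. In controls the order was Pdgfd (28.9 ± 3.87), Pdgfrb (22.6 ± 5.54), Pdgfa (20.4 ± 2.98), Pdgfra (19.6 ± 2.47), Ednrb (19.3 ± 1.16), Ece1 (19.2 ± 5.61), Edn1 (13.3 ± 1.77), Pdgfc (12.3 ± 4.38) and Pdgfb (9.17 ± 1.78). The range over libraries of each gene overlapped with that of its neighbour throughout this order. All genes were read in the same libraries, and neighbours were not compared within libraries, so that this overlap does not decide their order. In MafLSEC-KO, Ednrb came first at 27.5 ± 2.59 and Pdgfb seventh at 15.9 ± 1.24 CPM per kb, while Pdgfra, at 14.8 ± 1.85, stood between Pdgfb and Pdgfc.

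The gained peaks were not of a single kind. Of 10 member peaks within 1000 bases of a start, 2 were higher and 1 lower, against 6.03% and 1.75% of 12095 such peaks in all. Of 23 peaks in gene bodies, 5 were higher and 0 lower, against 9.40% and 7.74% of 25401, and of 22 intergenic peaks, 5 were higher and 1 lower, against 10.2% and 7.63% of 20772. Their widths were 197 to 2097 bases and their GC content 38.0% to 64.8%, within the range of the 41 peaks that did not pass in GC content (33.6% to 72.9%).

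The wider pathway was read from 47 other genes for processing and turnover of the ligands and for signalling of both receptor families, of which 45 had a tested sum. Of these, 1 was higher, 1 was lower and 43 did not pass. Over all tested genes, 5.65% of sums were higher and 4.05% lower, so that neither count was above the background. The median log2 fold change was 0.01 over the list, beside -0.02 over all tested genes. Src, a tyrosine kinase recruited by activated PDGF receptors, had 31.6, 25.6, 32.2 and 28.8 CPM in control libraries and 41.1, 38.9, 40.6 and 39.3 CPM in MafLSEC-KO, without overlap (log2 0.44, SE 0.112, edgeR adjusted p = 0.0241). Plcb1, a phospholipase C activated downstream of endothelin receptors, had 82.3, 86.0, 80.1 and 95.1 CPM in control libraries and 58.5, 67.6, 74.8 and 67.5 CPM in MafLSEC-KO, also without overlap (log2 -0.36, SE 0.102, adjusted p = 0.0433).

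Both calls were lost on leaving out any of several single libraries. Src lost its call on leaving out control replicate 2 (adjusted p = 0.0991) and on leaving out MafLSEC-KO replicate 1 (0.0758), 2 (0.0730) or 3 (0.0687). Plcb1 lost its call on leaving out control replicate 1 (0.0566), 2 (0.117) or 4 (0.0508), on leaving out MafLSEC-KO replicate 1 (0.142), 2 (0.117) or 4 (0.0842), and with only peaks within 50 kb of the start (0.274). By list, 0 of 8 tested genes of processing and turnover passed, 1 of 20 of PDGF receptor signalling (Src) and 1 of 17 of endothelin receptor signalling (Plcb1). With the replicate block, Furin, Plat, Src, Plcg1, Nck1, Ptprj and Prkca were higher (7 sums) and Plau, Crk, Crkl and Plcb1 lower (4 sums). That fit called more sums throughout, 12.2% of all genes higher and 10.8% lower, so that 7 and 4 of 45 were near the background.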

How the data were processed

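ATAC-seq libraries of LSECs were grouped by the genotype in the labels, 4 controls and 4 MafLSEC-KO. Per the study's methods and processing notes, the authors aligned reads to mm10, called peaks with MACS2, merged them, counted reads per peak with bedtools 2.30.0 and annotated peaks with HOMER 4.11. The deposited table holds raw counts per peak and library, which were used. The authors' normalized signal, RPKM, log2 fold changes, Wald score and p-value columns were deposited in the same table. Of these, the RPKM sum served to state the lowest level listed, 48.4, and the columns of the authors' own comparison were not used. No per-sample column was left unmatched (0).

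Counts of all peaks, and counts summed per annotated gene, were tested with the edgeR 4.0.16 quasi-likelihood test in R 4.3.3 (filterByExpr, TMM, two-sided, Benjamini-Hochberg over all tested rows, threshold 0.05). The filter removed 254 peaks and left 58268, among them all 55 members, and 17745 genes. Peaks without a gene name (68, with 0.0775% of counts) stayed out of gene sums. Peak and gene-sum CPM were scaled by their own TMM factors, so that the CPM of a gene with 1 peak differs slightly between them. The scripts were tested on simulated counts with known changes, from which no value is reported. Library totals were compared by an exact permutation test (two-sided p = 0.314, smallest possible 0.0286). Replicates differed by more than sampling noise, with a chi-square per peak of at least 2.43. Same-numbered libraries deviated together from their group means (r of 0.201, 0.112, 0.271 and 0.467 over peaks), and unlike-numbered ones gave r of -0.339 to 0.225. Control 1 was closer to MafLSEC-KO 3 than to MafLSEC-KO 1, and MafLSEC-KO 2 was closer to control 4 (r of 0.156) than to control 2. The reported calls come from the fit without the replicate number, and the fit with it as a block is given where it changes a call. The labels do not state what a number shares.

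Peaks were named where annotated as promoter or past the threshold, and otherwise as the strongest peak of a gene without either. Other peaks with values in the text were chosen after their values were seen. The members, lists and tests were chosen with earlier results of these data known. Alternatives were RLE size factors, DESeq2 1.42.0, limma 3.58.1 on cyclic loess values, no filter, depth as a covariate, both shallow controls (replicates 1 and 3) left out, the replicate block, each library left out, other thresholds and other sets of summed peaks. GENCODE and RefSeq GRCm38 supplied annotation and sequence.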

Additional observations from a re-analysis of the deposited data

How the results depend on the processing

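Over 462 comparisons of 30 named sums and peaks with an alternative, 421 kept their side of the threshold. Another 36 lost the call and 5 gained one, and in 0 did the sign change where either fit passed. The 421 include changes of sign where neither fit passed, as for the Ece1 sum (log2 -0.19 to 0.29 over the alternatives). The count of higher member peaks was 6 at an adjusted p under 0.01 and 7 to 14 with 1 library left out. That of lower member peaks was 5 with depth as a covariate, where 11.3% of all peaks were lower, 1 at 0.01 and 1 to 2 with 1 library left out. With 1 library left out, 5.73% to 9.76% of all peaks were higher and 4.26% to 8.09% lower. The shares of all peaks at 0.01 were not computed. Higher gene sums numbered 1 with promoter peaks alone, where few members have a peak to sum, and 2 to 3 with 1 library left out. Lower gene sums numbered 1 with DESeq2, with depth as a covariate, with the replicate block and at 0.1, and 0 to 1 with 1 library left out. The pathway list had 3 higher sums with DESeq2, 2 with cyclic loess, 5 with depth as a covariate, 3 without both shallow controls, 7 with the replicate block, 0 with promoter peaks alone, 0 at 0.01, 4 at 0.1 and 0 to 3 with 1 library left out. It had 5 lower sums with depth as a covariate, 4 without both shallow controls, 4 with the replicate block, 0 with promoter peaks alone, 0 within 50 kb, 0 at 0.01 and 0 to 1 with 1 library left out. Over all genes, 13% of sums were higher and 11.1% lower with depth as a covariate, and 9.15% and 7.26% without both shallow controls. With the replicate block the shares were 12.2% and 10.8%. The shares of higher sums were 7.37% with DESeq2 and 6.16% with cyclic loess, so that the pathway counts in these fits were near the background. Peaks above the rest of their gene numbered 5 with depth as a covariate, 5 without both shallow controls, 5 with the replicate block, 1 at 0.01, 4 at 0.1 and 1 to 5 with 1 library left out. Peaks below it numbered 1 without both shallow controls, 1 at 0.01 and 1 to 2 with 1 library left out. The share of all peaks in this test was computed for the main fit and threshold alone, so these counts have no background. The cause of these shifts was not tested. With the replicate block 15 member peaks were higher and 3 lower, against 14.2% and 10.7% of all peaks, and among named sums and peaks it changed no call other than those given in the report. Peaks with few reads, such as that in intron 2 of Edn1, leave wide intervals at this depth.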
